A study of Mus musculus with 16 samples.

Results

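The proteasome genes were described here across PNOC neuron ribosomes and whole hypothalamus of the mouse. They were taken by symbol from the gene table, as every gene named Psma, Psmb, Psmc, Psmd, Psme, Psmf or Psmg followed by a number, which gave 48 of 45706 genes. By role, 14 encode the constitutive core, 17 the base and lid of the regulatory particle, 3 the inducible catalytic subunits, 7 assembly chaperones, 4 activators and 1 an inhibitor, while Psma8 and Psmb11 encode core subunits known from testis and thymus.

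The proteasome is the barrel-shaped protease that degrades proteins tagged with ubiquitin. Its 20S core is a stack of alpha and beta rings, and the beta subunits Psmb5, Psmb6 and Psmb7 hold the chymotrypsin-like, caspase-like and trypsin-like cutting sites. In immune cells and after interferon, Psmb8, Psmb9 and Psmb10 take their places and form the immunoproteasome, which shapes peptides for display on MHC class I molecules. The 19S regulatory particle caps the core: its base holds a ring of ATPases that unfold substrates, and its lid removes ubiquitin. In neurons the proteasome is known for its part in synaptic protein turnover.

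Ribosomes were precipitated from hypothalamus through L10a, a protein of the large ribosomal subunit fused to green fluorescent protein and made only where Cre recombinase is active. The labels place Cre in PNOC neurons, cells that express prepronociceptin, and name no driver line, so the tag marks cells in which Cre has acted. Control mice were labelled Lepr-flox and the others carried a deletion of the leptin receptor gene Lepr in Pnoc cells, and both carried the ROSA-STOP-L10a-bactrap allele. All were 12 weeks old by the treatment label (10 to 12 by the extraction protocol), fed chow and sampled randomly fed in the morning, and of C57Bl/6N background, and no label gave their sex. Each library came from the pooled tissue of 4 animals. Control pools 1 to 4 and deletion pools 5 to 8 each gave an input library, made from an aliquot of the lysate, and a pulldown library, made from the precipitated ribosomes, so there were 4 groups of 4 libraries.

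Salmon's estimated counts summed to between 64435952 and 78623636 per library, and proteasome genes made up 0.231% to 0.275% of them in input and 0.407% to 0.431% in pulldown. Mitochondrially encoded genes took 27.6% to 32.5% of input counts and at most 0.112% of pulldown counts. Levels are given as CPM (counts relative to library size) after scaling by trimmed mean of M values (TMM), or, where genes are compared with each other, as the deposited TPM, which corrects for length. Pnoc lay between 2.19 and 2.96 CPM in input and between 6.99 and 10.1 CPM in pulldown. The summed level of 6 neuronal markers was 8010 to 9040 CPM in input and 12400 to 14400 CPM in pulldown. By the test given below, 5 of them were higher and 1 was lower in pulldown in both genotypes. Of all genes 30.1% were higher and 34.6% lower in control mice, and 28.8% and 32.8% in the others. Lepr itself was not lower in the deletion-labelled pulldown (2.44 to 2.84 CPM) than in control pulldown (1.44 to 1.86 CPM). These totals cover the whole gene, and no source used here states which part was deleted, so they are no check of the labels, and the pools are called deletion-labelled below.

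Core transcripts were at a higher and more even level than those of the regulatory particle in every group. On the TPM scale, which is per length, the 14 core genes had a median level of 109 in control input, from 53.9 for Psmb3, a non-catalytic beta subunit, to 237 for Psma3, an alpha subunit. The 17 base and lid genes had a median TPM level of 65.9 in control input, from 13.5 for Psmd3, a lid scaffold, to 218 for Psmc5, a base ATPase. The highest core gene was thus at 4.39 times the lowest, against 16.2 times for base and lid. In control pulldown the TPM medians were 323 for the core and 132 for base and lid, with the same genes at both ends. The assembly chaperones lay lower, with median TPM levels in control input of 10.1 for the 4 that help build the core and 17.4 for the 3 that help build the base.

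The summed TPM of the core divided by that of base and lid was 1.35 to 1.45 in control input and 1.77 to 1.80 in control pulldown. It was 1.40 to 1.51 in deletion-labelled input and 1.68 to 1.77 in deletion-labelled pulldown. Pulldown libraries lay above input libraries of their genotype without overlap, and this ratio does not depend on how libraries were scaled against each other.

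The first comparison asked which transcripts were more abundant on PNOC ribosomes than in the whole hypothalamus. In control mice all 14 core genes were higher in pulldown, by a log2 fold change of 0.19 to 0.62 with a median of 0.44. Of the base and lid, 9 of 17 were higher and none lower, with a median log2 fold change of 0.11. Over all proteasome genes 32 were higher, 3 lower and 12 not past the threshold among the 47 tested (edgeR's quasi-likelihood test, Benjamini-Hochberg adjusted p under 0.05 over all 17570 genes tested). Over all genes 30.1% were higher and 34.6% lower, and the median log2 fold change was -0.02, against 0.33 for the proteasome genes. In bulk libraries of this kind, more cells of a type and more RNA per cell cannot be told apart.

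Deletion-labelled mice gave 26 proteasome genes higher, 4 lower and 16 not past the threshold of the 46 tested, beside 28.8% of all genes higher and 32.8% lower. The median log2 fold change was 0.20 for the tested proteasome genes and -0.01 for all genes. All 26 genes higher here were among the 32 in control mice, and the 3 lower in control mice were among the 4 lower here. The core had 13 of 14 genes higher with a median log2 fold change of 0.33, and base and lid had 7 higher and 1 lower of 17 with a median of 0.08. The exception in the core was Psmb4, a beta subunit at the waist of the barrel, with a log2 fold change of 0.05 (SE 0.06, edgeR adjusted p = 0.517). With the pool as a block in the fit, Psmb3 did not pass in these mice (0.17, edgeR adjusted p = 0.0544).

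These directions are relative to the bulk of genes. Where libraries were scaled by their totals, the median of all genes moved to 0.53 in control and 0.44 in deletion-labelled mice, and the share of calls that were higher went from 46.5% to 76.2% and from 46.8% to 74.4%. All 17 base and lid genes were then higher in both genotypes, Psmc5 included. The distance of the core median from the all-gene median was 0.46 in control and 0.34 in deletion-labelled mice under either scaling, and that of base and lid was 0.13 and 0.09. These distances moved with the genes admitted to the test. Among genes with a mean of at least 1 CPM the distance was 0.38 and 0.27 for the core and 0.05 and 0.03 for base and lid, of which 7 were then higher and 2 lower in control. With no filter it was 0.63 and 0.50 for the core and 0.30 and 0.26 for base and lid, and with limma on log2(TPM + 1) it was 0.68 and 0.55 against 0.36 and 0.29. The core lay farther above the all-gene median than base and lid in each of these settings.

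**Figure D1:**
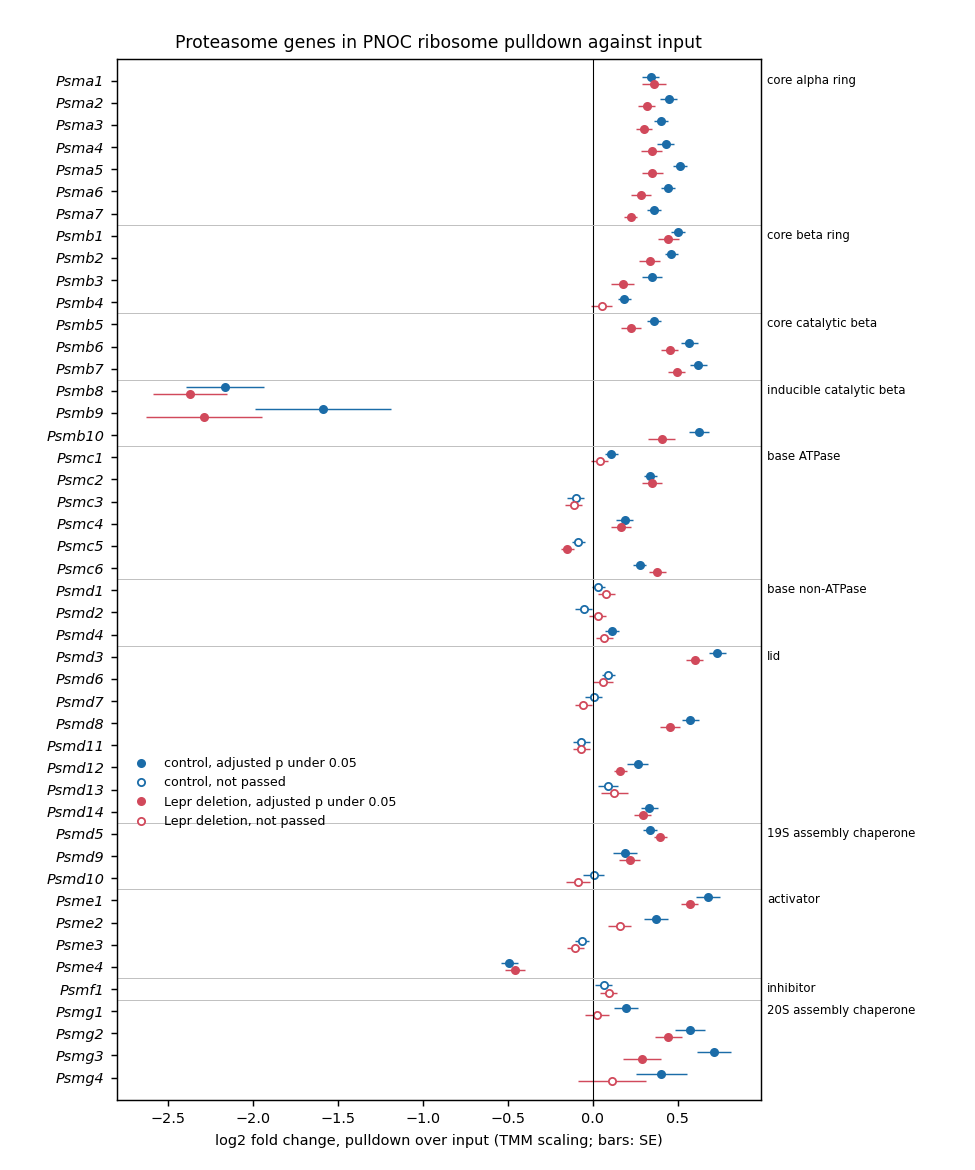
Log2 fold change of pulldown over input (x axis, TMM scaling, bars show SE) for 46 proteasome genes grouped by role, in control (blue) and deletion-labelled (red) mice with 4 libraries a group. Filled points passed an adjusted p of 0.05. Core genes lie to the right of 0 (0.19 to 0.62 in control), base and lid genes spread around a smaller median (0.11 in control), and Psmb8, Psmb9 and Psme4 lie to the left, of which Psme4 moves to or above 0 when scaled by library totals or tested as TPM. Psma8 and Psmb11, at a few counts per library, are not drawn.

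Psmb7 and Psmb6, both catalytic, had the highest log2 fold changes of the core in both genotypes. Psmb7, the trypsin-like subunit (GRCm38 chromosome 2, 38588046 to 38643952), was at 79.2, 82.0, 93.5 and 85.9 CPM in input of control pools 1 to 4 and at 138, 134, 135 and 130 CPM in their pulldown. In deletion-labelled pools 5 to 8 it was at 82.2, 93.8, 86.2 and 87.6 CPM in input and 126, 127, 125 and 124 CPM in pulldown. Every pulldown library lay above every input library. Its log2 fold change was 0.62 (SE 0.05, edgeR adjusted p = 8.64e-07) in control and 0.49 (SE 0.05, adjusted p = 9.85e-07) in deletion-labelled mice.

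Psmb6, the caspase-like subunit, went from 59.9 ± 2.71 CPM in control input to 91.2 ± 2.94 in control pulldown (SD, n = 4), a log2 fold change of 0.57 (SE 0.05, edgeR adjusted p = 6.96e-07). Psmb5, the chymotrypsin-like subunit that the drug bortezomib binds, went from 72.6 ± 0.967 to 95.9 ± 1.8 CPM (SD, n = 4), a log2 fold change of 0.36 (SE 0.04, edgeR adjusted p = 3.52e-06). In deletion-labelled mice Psmb6 was at 0.45 and Psmb5 at 0.22, both past the threshold. All 3 catalytic genes passed as higher in pulldown in both genotypes. Of all genes 30.1% passed as higher in control pulldown and 28.8% in deletion-labelled pulldown. Input and pulldown libraries of the 3 genes did not overlap in either genotype, and the share of all genes without such overlap is not given here.

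On the per-length TPM scale the 3 constitutive catalytic genes had similar levels, at 109 for Psmb7, 128 for Psmb6 and 133 for Psmb5 in control input. Psmb6 (122 to 134 TPM) and Psmb5 (131 to 136 TPM) overlapped among these libraries, and Psmb7 (103 to 119 TPM) lay below both. In control pulldown Psmb7 (332 to 339 TPM) and Psmb5 (341 to 346 TPM) did not overlap, and Psmb6 (363 to 400 TPM) was above both.

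The inducible subunits did not move as 1 group. Psmb8, which replaces Psmb5 in the immunoproteasome (chromosome 17, 34198195 to 34201454), was at 2.86, 1.61, 2.17 and 2.42 CPM in input of control pools 1 to 4 and at 0.690, 0.497, 0.452 and 0.432 CPM in their pulldown. In deletion-labelled pools 5 to 8 it was at 1.74, 3.07, 2.46 and 3.41 CPM in input and at 0.500, 0.467, 0.573 and 0.556 CPM in pulldown. All 8 input libraries were above all 8 pulldown libraries, in which 39 to 60 counts lay behind each value. The log2 fold change was -2.17 (SE 0.23, edgeR adjusted p = 6.41e-06) in control and -2.37 (SE 0.22, adjusted p = 8.61e-07) in deletion-labelled mice.

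Psmb9, which replaces Psmb6 and lies beside Psmb8 on chromosome 17 (34182030 to 34187330), was at 0.642, 0.593, 1.29 and 0.426 CPM in control input and 0.368, 0.194, 0.278 and 0.166 CPM in control pulldown. In deletion-labelled mice it was at 0.689, 0.965, 0.993 and 1.04 CPM in input and 0.310, 0.109, 0.199 and 0.146 CPM in pulldown. Input and pulldown did not overlap in either genotype, with 10 to 32 counts behind each pulldown value. The log2 fold change was -1.59 (SE 0.40, edgeR adjusted p = 0.00405) in control and -2.29 (SE 0.34, adjusted p = 6.25e-05) in deletion-labelled mice. In control the fall did not pass with length-rescaled counts (-1.20, adjusted p = 0.0558) or with limma on log2(TPM + 1) (-0.08, adjusted p = 0.754), and on the TPM scale the control libraries overlapped (0.457 to 2.00 in input, 0.579 to 1.44 in pulldown).

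Psmb10, which replaces Psmb7 (chromosome 8, 105935728 to 105938392), moved the other way. It was at 12.1, 12.6, 13.8 and 12.8 CPM in control input and at 19.1, 21.5, 20.9 and 19.7 CPM in control pulldown. The groups did not overlap, and the log2 fold change was 0.62 (SE 0.06, edgeR adjusted p = 4.66e-06), the same value as for Psmb7. In deletion-labelled mice it was 0.41 (SE 0.08, adjusted p = 0.00063).

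The share of each inducible subunit in its pair, computed from TPM within a library, does not depend on how libraries were scaled. Psmb8 made up 1.05% to 1.80% of Psmb8 plus Psmb5 in control input and 0.212% to 0.328% in control pulldown. It made up 1.15% to 1.97% in deletion-labelled input and 0.220% to 0.290% in deletion-labelled pulldown. Input and pulldown did not overlap in either genotype. A two-sided exact permutation test gave p = 0.0286 each, the smallest p that 4 against 4 libraries can give. After adjustment over 12 tests of these shares it was 0.114. The test did not use the pairing of input and pulldown by pool. Psmb9 made up 0.341% to 1.58% of Psmb9 plus Psmb6 in control input and 0.145% to 0.383% in control pulldown, which overlapped (exact permutation p = 0.0571, adjusted 0.147). In deletion-labelled mice its share was 0.590% to 0.814% in input and 0.0835% to 0.169% in pulldown (exact permutation p = 0.0286, adjusted 0.114). Psmb10 made up 11.9% ± 0.213 of Psmb10 plus Psmb7 in control input and 11.9% ± 0.620 in control pulldown (SD, n = 4, exact permutation p = 0.971). Psmb10 was thus by level the main inducible subunit in every group, and the only one of the 3 whose share of its pair overlapped between input and pulldown in both genotypes.

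**Figure D2:**
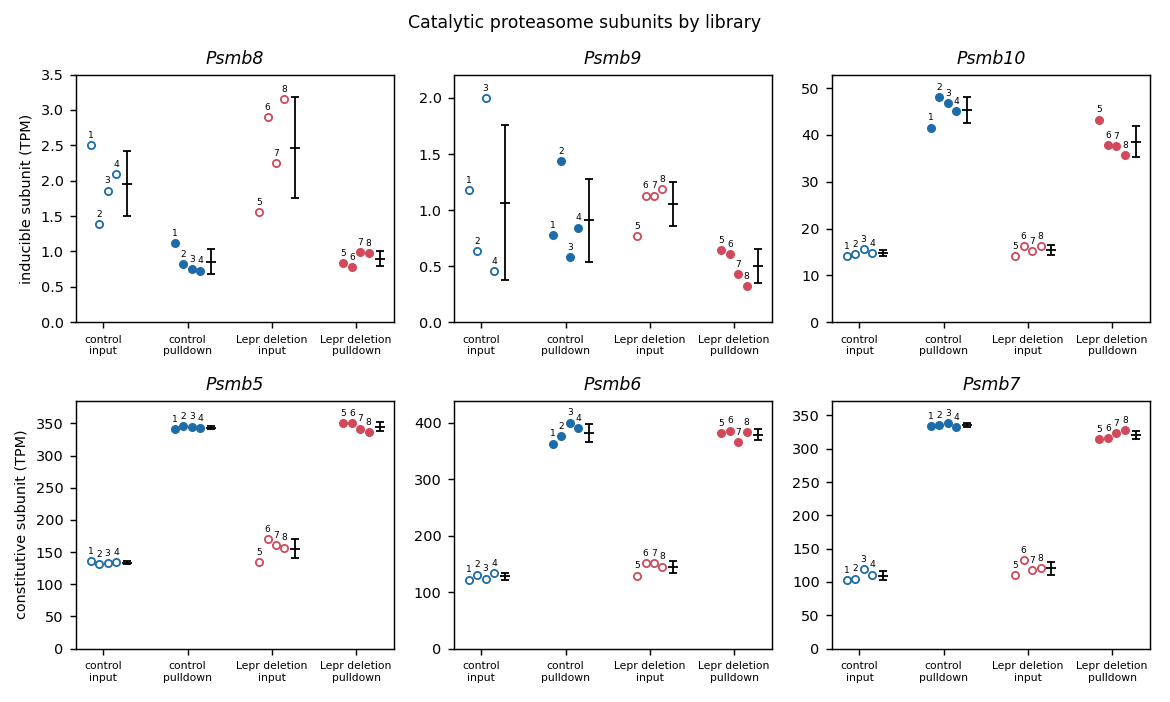
TPM (y axis, from 0) of the 3 inducible catalytic genes (top) and the constitutive genes they replace (bottom) in each library. Open points are input, filled points pulldown, numbers are pools, and black bars show mean and SD of 4 libraries. Psmb8 is lower in pulldown (1.96 and 0.857 TPM on average in control) while Psmb5, Psmb6, Psmb7 and Psmb10 are higher. TPM of most genes is higher in pulldown, where mitochondrial transcripts take little of the total.

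Markers of microglia and of the other non-neuronal cells listed were lower in pulldown, as Psmb8 and Psmb9 were. The summed level of 8 microglial markers was 54.5 to 62.6 CPM in control input and 2.71 to 3.77 CPM in control pulldown, and 53.9 to 59.5 and 2.13 to 2.92 CPM in deletion-labelled mice, and all 8 were lower in pulldown in both genotypes. Markers of endothelium and pericytes summed to 35.1 to 68.8 CPM in input and 2.29 to 11 CPM in pulldown, with all 4 tested lower. All tested markers of astrocytes, oligodendrocytes, and tanycytes and ependyma were lower too in both genotypes. Their median log2 fold changes in control were -4.69, -4.1 and -3.14, beside -4.44 for microglia and -2.98 for endothelium and pericytes. The part of these cells in the values of Psmb8 and Psmb9 was not tested. Of 6 MHC class I partners of the immunoproteasome 5 were tested, of which 3 were lower in control pulldown and 5 in deletion-labelled pulldown. Of all genes 34.6% were lower in control pulldown and 32.8% in deletion-labelled pulldown. B2m, the light chain of MHC class I, was at 57.1 ± 6.02 CPM in control input and 21.4 ± 1.33 in control pulldown (SD, n = 4), a log2 fold change of -1.45 (SE 0.08, edgeR adjusted p = 1.57e-08), and at -1.57 (adjusted p = 2.72e-07) in deletion-labelled mice.

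The activators, which open the core without ATP, also went in different directions. Psme1, the alpha chain of the interferon-inducible 11S ring (chromosome 14, 55578494 to 55581527), was at 74.7, 64.2, 71.1 and 62.1 CPM in control input and at 122, 115, 107 and 103 CPM in control pulldown. The groups did not overlap, and the log2 fold change was 0.68 (SE 0.07, edgeR adjusted p = 4.23e-06), and 0.57 (SE 0.05, adjusted p = 4.8e-07) in deletion-labelled mice. Psme2, the beta chain of the same ring, was at 0.37 (SE 0.07, adjusted p = 0.000433) in control and 0.16 (SE 0.07, adjusted p = 0.0557) in deletion-labelled mice, where it passed with the pool as a block (0.16, edgeR adjusted p = 0.0445). Psme3, which forms the nuclear activator, did not pass in either (-0.06 and -0.11).

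Psme4, which encodes the large activator PA200 (chromosome 11, 30771775 to 30881150), was at 49.9, 48.5, 47.2 and 52.5 CPM in control input and 35.3, 36.4, 38.4 and 34.4 CPM in control pulldown. The groups did not overlap, and the log2 fold change was -0.49 (SE 0.05, edgeR adjusted p = 5.25e-06) in control and -0.46 (SE 0.06, adjusted p = 1.14e-05) in deletion-labelled mice, but 0.05 and 0.00 with library totals and 0.37 and 0.35 with limma on log2(TPM + 1). Its relative length was the highest of the family, at 5.1 times the median proteasome gene, and it is 1 of 12 proteasome genes, with Psmb5, Psmb7, Psmc5 and Psme1, that overlap another annotated gene, whose reads may not be told apart from theirs.

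Among base and lid genes the highest value belonged to Psmd3, a scaffold of the lid (chromosome 11, 98682554 to 98695978). It was at 21.4, 20.9, 21.9 and 21.0 CPM in control input and at 37.4, 36.9, 36.0 and 35.2 CPM in control pulldown. No pulldown library came near the input range, and the log2 fold change was 0.73 (SE 0.05, edgeR adjusted p = 8.6e-08) in control and 0.60 (SE 0.05, adjusted p = 3.56e-07) in deletion-labelled mice. Psmd8, another lid subunit, was at 0.57 and 0.46, Psmd14, the deubiquitinase of the lid, at 0.33 and 0.29, and Psmd12 at 0.26 and 0.16. The other 4 lid genes tested, Psmd6, Psmd7, Psmd11 and Psmd13, did not pass in either genotype, at -0.07 to 0.13.

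In the base ATPase ring Psmc2, Psmc4 and Psmc6 passed in both genotypes, at log2 fold changes of 0.34, 0.19 and 0.28 in control and 0.35, 0.17 and 0.38 in deletion-labelled mice. Psmc1 passed in control only (0.11, against 0.04 in deletion-labelled mice), and the difference between genotypes was -0.08 (edgeR adjusted p = 0.74). Psmc5 was at -0.09 (SE 0.04, edgeR adjusted p = 0.0578) in control and -0.15 (SE 0.04, adjusted p = 0.00571) in deletion-labelled mice. With the pool as a block, 5 rather than 3 proteasome genes were lower in control pulldown, beside 36.2% of all genes, with Psmc5 (-0.09, edgeR adjusted p = 0.0206) and Psmc3 (-0.10, adjusted p = 0.0468) added. Of the ubiquitin receptors and scaffolds of the base, Psmd4 passed in control (0.11), and Psmd1 and Psmd2 passed in neither.

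Of the chaperones that build the core, Psmg1, Psmg2, Psmg3 and Psmg4 were all higher in control pulldown, and Psmg2 and Psmg3 in deletion-labelled pulldown. Beside them, 30.1% of all genes were higher in control pulldown and 28.8% in deletion-labelled pulldown. The difference of this change between genotypes did not pass for any of these chaperones. Psmg3 was at 3.68, 4.54, 4.87 and 4.25 CPM in control input and 7.05, 7.66, 7.28 and 7.27 CPM in control pulldown. The groups did not overlap, and the log2 fold change was 0.71 (SE 0.10, edgeR adjusted p = 4.45e-05). In deletion-labelled mice it was 0.29 (SE 0.11, adjusted p = 0.0336), where input (4.59 to 5.62 CPM) and pulldown (5.61 to 7.22 CPM) overlapped. Of the chaperones that build the base, Psmd5 and Psmd9 were higher in both genotypes (0.34 and 0.19 in control), and Psmd10, also known as gankyrin, passed in neither (0.00 and -0.09).

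The tissue-restricted subunits were at or near the limit of detection. Psma8, the alpha subunit of the testis, had 5 to 14 counts in control input and 0 to 17 in control pulldown, with a log2 fold change of -1.28 (SE 0.72, edgeR adjusted p = 0.141), or -2.20 (adjusted p = 0.0232) without the pulldown of pool 1, which held the 17 counts. In deletion-labelled mice it had 7 to 23 counts in input and 0 to 6 in pulldown, or 0.118 to 0.384 and 0 to 0.0714 CPM, which did not overlap. It was below the filter of that edgeR comparison, and the authors' deposited table gives a log2 fold change of -2.66 with an adjusted p of 0.00393. Psmb11, the beta subunit of the thymus, had 0 to 14 counts in any library and was below the filter of each main edgeR comparison. For pulldown over input the authors' deposited table gives it -0.75 (adjusted p = 0.632) in control and -0.99 (adjusted p = 0.649) in deletion-labelled mice. A count of 3, taken as the floor, corresponded to up to 0.0556 CPM in the control inputs.

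Core genes are shorter than base and lid genes in these files, with a median relative length of 0.734 against 1.22, where 1 is the median proteasome gene and length is read from the ratio of count to TPM in control input. Across the 47 genes tested in control mice, Spearman's correlation of that length with the log2 fold change of pulldown over input was -0.58, beside -0.20 across all 17569 genes with a length. In deletion-labelled mice it was -0.32 across 46 genes, beside -0.11 across all genes. Within the 14 core genes it was 0.046 in control and 0.33 in deletion-labelled mice, and within the 17 base and lid genes -0.029 and 0.054. Genes no longer than the longest core gene had a median log2 fold change of 0.19 in control and 0.10 in deletion-labelled mice, against 0.44 and 0.33 for the core. These are descriptions across genes of the same libraries, which are not independent, and the part of length in the difference between core and regulatory particle was not tested.

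The partners of the proteasome outside the symbol rule were 38 genes, of which 36 were tested in these comparisons. In control pulldown 19 were higher and 7 lower, beside 30.1% and 34.6% of all genes. In deletion-labelled pulldown 19 were higher and 9 lower, beside 28.8% and 32.8% of all genes. Pomp, the chaperone that matures the core, was at 96.0 ± 4.96 CPM in control input and 158 ± 8.39 in control pulldown (SD, n = 4), a log2 fold change of 0.68 (SE 0.05, edgeR adjusted p = 2.75e-07), and at 0.51 (adjusted p = 7.58e-06) in deletion-labelled mice. The regulatory particle subunits with other symbols, Sem1 and Adrm1, were higher at 0.57 and 0.33 in control and 0.48 and 0.29 in deletion-labelled mice.

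Transcription factors of proteasome genes differed from each other. Nfe2l1, which restores proteasome transcripts when the proteasome is inhibited, was at 145 ± 14.1 CPM in control input and 140 ± 15.2 in control pulldown (SD, n = 4) and did not pass in either genotype (-0.09 and -0.07). Nfe2l2, the factor of the oxidative stress response, was at 16.2 ± 1.15 and 1.81 ± 0.422 CPM (SD, n = 4), a log2 fold change of -3.21 (SE 0.14, edgeR adjusted p = 2.57e-09), and -3.17 (adjusted p = 1.54e-10) in deletion-labelled mice. Markers of astrocytes moved the same way, with a summed level of 2320 to 2680 CPM in control input and 132 to 150 CPM in control pulldown. So did those of oligodendrocytes, microglia, endothelium and pericytes, and tanycytes and ependyma. The part of these cells in the value of Nfe2l2 was not tested. Ubr4, a large ubiquitin ligase, was lower at -0.91 and -0.61.

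Promoters are shown for 4 of the genes described above whose window was in the table and holds a match of a motif searched: the constitutive catalytic subunits Psmb5 and Psmb6, the inducible Psmb8, and Psmd9, the 1 gene past the threshold between genotypes in pulldown. Each runs 5′ to 3′ on the gene's strand, from 250 bases before to 50 after the start in RefSeq on GRCm38.p6, with capitals for motif matches. They lie at chr14:54617946-54618245 on the minus strand for Psmb5, and on the plus strand at chr11:70525107-70525406 for Psmb6, chr17:34197945-34198244 for Psmb8 and chr5:123227940-123228239 for Psmd9. Capitals mark TGACNNNGC, the core of the antioxidant response element that Nfe2l1 and Nfe2l2 bind, in Psmb5, Psmb6 and Psmd9, the core of the interferon-stimulated response element (GAAA, any 2 bases, GAAA) in Psmd9, and TTCNNNGAA, the core of a STAT site, in Psmb8.
Psmb5: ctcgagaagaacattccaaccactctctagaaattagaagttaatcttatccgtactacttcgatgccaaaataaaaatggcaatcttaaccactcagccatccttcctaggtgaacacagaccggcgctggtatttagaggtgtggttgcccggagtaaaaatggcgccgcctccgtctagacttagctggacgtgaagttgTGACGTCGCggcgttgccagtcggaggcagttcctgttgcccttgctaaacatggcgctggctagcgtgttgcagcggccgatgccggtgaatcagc
Psmb6: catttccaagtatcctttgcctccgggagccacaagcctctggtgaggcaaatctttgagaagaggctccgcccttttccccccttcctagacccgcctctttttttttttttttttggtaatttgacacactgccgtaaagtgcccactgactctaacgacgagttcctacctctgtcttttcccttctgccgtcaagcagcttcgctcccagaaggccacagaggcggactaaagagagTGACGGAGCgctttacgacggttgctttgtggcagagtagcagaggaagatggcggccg
Psmb8: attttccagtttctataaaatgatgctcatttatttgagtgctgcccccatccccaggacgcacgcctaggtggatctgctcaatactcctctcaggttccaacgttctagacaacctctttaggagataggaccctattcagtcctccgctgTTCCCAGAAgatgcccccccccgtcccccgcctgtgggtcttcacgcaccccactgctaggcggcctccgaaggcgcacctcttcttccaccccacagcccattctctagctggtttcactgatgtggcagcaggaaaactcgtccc
Psmd9: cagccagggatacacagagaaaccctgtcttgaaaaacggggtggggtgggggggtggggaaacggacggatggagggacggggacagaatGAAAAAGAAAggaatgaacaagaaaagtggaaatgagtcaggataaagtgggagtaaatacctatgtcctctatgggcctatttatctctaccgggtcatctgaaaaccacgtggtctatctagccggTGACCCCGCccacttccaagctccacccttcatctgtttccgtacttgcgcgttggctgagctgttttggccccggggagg

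Promoter windows were found for 40 of the 48 genes, in 43 windows, and each motif was searched on both strands. TGACNNNGC occurred in 14% of the proteasome windows and 12.4% of all 32851 windows, TTCNNNGAA in 6.98% and 8.3%, CCAAT in 32.6% and 37.4%, and the interferon-stimulated response element core in 11.6% and 3.44%. The genes with the last were Psmb3, Psmd4, Psmd9, Psme1 and Psmg4. Psmb8, Psmb9, Psmb10 and Psme2 had windows without it. A match describes the letters of the window and is neither a site nor a cause.

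The next comparison asked which ribosome-bound transcripts differed between genotypes. Few proteasome genes did: 1 of 46 tested was higher in deletion-labelled pulldown and none lower, beside 0.391% of all genes higher and 0.249% lower (edgeR, 16859 genes tested). The median log2 fold change was 0.02 for the proteasome genes and -0.01 for all genes. At an unadjusted p under 0.05 there were 11 (6 higher and 5 lower), beside 19.8% of all genes, and DESeq2 gave 3 higher and 1 lower, beside 7.31% of all genes.

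The gene that passed was Psmd9 (chromosome 5, 123228190 to 123250126), a chaperone of base assembly also known as p27. It was at 16.2, 15, 14.1 and 14.7 CPM in pulldown of control pools 1 to 4 and at 18.1, 19.6, 17.8 and 19.0 CPM in pulldown of deletion-labelled pools 5 to 8. The groups did not overlap, and the log2 fold change was 0.33 (SE 0.06, edgeR adjusted p = 0.0487). It did not pass without any 1 of pools 2, 3, 4, 6, 7 and 8 (log2 fold change 0.29 to 0.34, adjusted p = 0.112 to 0.177), with library totals (0.30, adjusted p = 0.0641), with rescaled counts (0.33, adjusted p = 0.0823) or with limma on log2(TPM + 1) (0.32, adjusted p = 0.0779), and it passed with DESeq2 (0.33, adjusted p = 0.000219). The authors' deposited table gives it 0.33 with an adjusted p of 0.000238.

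Psmd9 was also the proteasome gene with the smallest p between genotypes in input, at 13.8, 12.9, 12.0 and 12.5 CPM in control pools and 15.2, 16.3, 15 and 16.4 CPM in deletion-labelled pools. The groups did not overlap there either, but the log2 fold change of 0.29 (SE 0.07) had an edgeR adjusted p of 0.115, or 0.0378 at 0.33 without pool 1. The authors' deposited table gives 0.30 with an adjusted p of 0.0153 for this comparison.

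Next to Psmd9 by p in pulldown, and not past the threshold with edgeR, were Psma1 (0.16, SE 0.05, edgeR adjusted p = 0.11), an alpha subunit, and Psmd5 (0.13, SE 0.04, adjusted p = 0.117), a base chaperone. Below 0 these were Psmb10 (-0.25, SE 0.08, adjusted p = 0.117), Psmd3 (-0.12, SE 0.05, adjusted p = 0.177) and Psma7 (-0.10, SE 0.04, adjusted p = 0.201). With DESeq2, Psma1 (adjusted p = 0.0403), Psmd5 (0.0348) and Psmb10 (0.0373) passed, and the authors' deposited table gives them adjusted p of 0.0384, 0.0325 and 0.0373. Psmb10 was at 19.1, 21.5, 20.9 and 19.7 CPM in control pulldown and at 19.3, 17, 16.2 and 15.1 CPM in deletion-labelled pulldown. Pool 5 lay within the control range and pools 6, 7 and 8 below it. Without the pulldown of pool 5, Psmb10 was at -0.33 (edgeR adjusted p = 0.0209) and Psma1 at 0.17 (adjusted p = 0.0418). In 1 fit of all 16 libraries Psmb10 was at -0.26 (adjusted p = 0.0493).

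The same question in input gave no proteasome gene past the threshold among 47 tested, beside 0.135% of all genes higher and 0.0959% lower (edgeR, 17735 genes tested). The values leaned upward: 42 of 47 were above 0, beside 49.3% of all genes, with a median log2 fold change of 0.07 against 0.00. The mitochondrial share of input counts moved with this, at 31.2% to 32.5% in control pools and 27.6% to 30.0% in deletion-labelled pools, where pool 5 had the 30.0%, and its part in these values was not tested. At an unadjusted p under 0.05 there were 11, 10 of them higher, beside 14% of all genes, and DESeq2 gave 3 higher (Psma6, Psmd9 and Psmd10) and 1 lower (Psme4), beside 2.37% of all genes. Psma6, an alpha subunit, was at 117, 112, 117 and 116 CPM in control input and at 117, 142, 135 and 137 CPM in deletion-labelled input. Pool 5 was at the control level and the others above it, and the log2 fold change was 0.20 (SE 0.06, edgeR adjusted p = 0.169), or 0.25 (adjusted p = 0.0169) without pool 5, where Psma5 passed as well (0.25, adjusted p = 0.0315). Psmd10 was at 0.27 (SE 0.07, adjusted p = 0.165) and Psme4 at -0.18 (SE 0.05, adjusted p = 0.158).

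**Figure D3:**
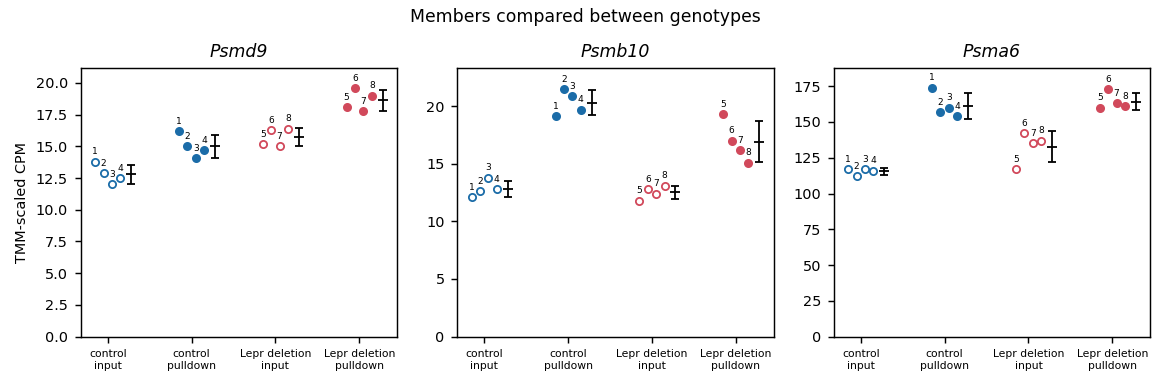
TMM-scaled CPM (y axis, from 0) of Psmd9, Psmb10 and Psma6 in each library, with open points for input, filled points for pulldown, pool numbers beside them and black bars for mean and SD of 4 libraries. Psmd9 is higher in deletion-labelled pools in both fractions (15 and 18.6 CPM on average in pulldown). For Psmb10 in pulldown and Psma6 in input, pool 5 lies at the control level.

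In input, pool 5 stood apart from the other deletion-labelled pools for the core as a whole. The median log2 difference of the 14 core genes from the mean of the control inputs was -0.05 in pool 5 and 0.14, 0.17 and 0.12 in pools 6, 7 and 8, beside -0.04 to 0.03 in control pools. For the 17 base and lid genes it was -0.02 in pool 5 and 0.08, 0.11 and 0.06 in the others. In pulldown pool 5 did not stand apart for the core, which was at -0.02, 0.02, -0.08 and -0.08, with base and lid at -0.02, 0.06, 0.06 and 0.05 in pools 5 to 8. Without pools 1 and 5, an alternative chosen with the data known, 10 proteasome genes were higher and 1 lower in input (4.3% and 6.67% of all genes) and 5 higher and 1 lower in pulldown (9.35% and 10.5% of all genes). The 10 in input were Psma2, Psma3, Psma5, Psma6, Psmb4 and Psmb5 of the core, Psmd14 of the lid, the chaperone Psmd9 and the activators Psme1 and Psme2. Pool 5 held the lowest core median of the deletion-labelled inputs. Leaving it out therefore raises such differences, and these calls are no further support for them.

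**Figure D4:**
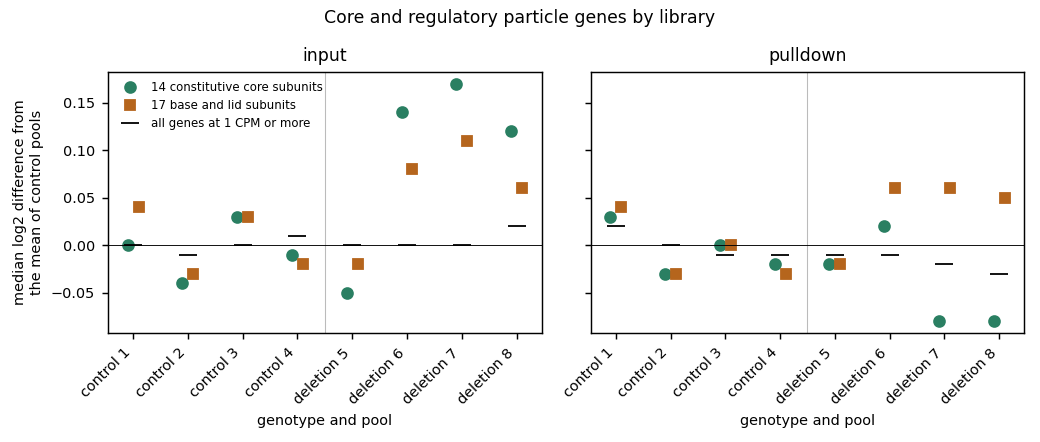
Median log2 difference from the mean of the control pools (y axis) of the 14 core genes (green circles), the 17 base and lid genes (brown squares) and all genes with a mean of at least 1 CPM (black bars), by library, in input (left) and pulldown (right). In input, pools 6, 7 and 8 lie at 0.12 to 0.17 for the core while pool 5 lies at -0.05. In pulldown, pools 7 and 8 lie at -0.08 for the core and 0.06 and 0.05 for base and lid.

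The last comparison asked whether the change from input to pulldown differed between genotypes, and it shares its libraries with the comparisons above. No proteasome gene of 47 tested passed, beside 0.0054% of all genes higher and 0.0054% lower (edgeR, all 16 libraries), and DESeq2 called 0.113% of all genes. At an unadjusted p under 0.05 there were 8, all lower, beside 8.96% of all genes in either direction. The median log2 difference was -0.11 for the proteasome genes and -0.01 for all genes, and 37 of 47 were below 0, beside 53.2% of all genes. The core had a median of -0.14 and base and lid of -0.04. The smallest p belonged to Psmg3 (-0.43, SE 0.14, adjusted p = 0.427), followed by Psma7 (-0.15, SE 0.06, adjusted p = 0.465) and Psme2 (-0.22, SE 0.10, adjusted p = 0.512). The inducible Psmb8, Psmb9 and Psmb10 were at -0.21, -0.71 and -0.23, with SE of 0.32, 0.53 and 0.10. Spearman's correlation of this difference with relative length was 0.63 across the 47 proteasome genes and 0.25 across all genes. Within the 14 core genes it was 0.27, and within the 17 base and lid genes 0.28. These are descriptions, and the part of length in the values was not tested.

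The 38 partners of the proteasome gave none past the threshold between genotypes in pulldown, in input or in the difference of the change (36, 37 and 37 tested). The smallest p in pulldown belonged to Fbxo7 (0.20, SE 0.06, edgeR adjusted p = 0.104), a ligase adaptor that binds the proteasome inhibitor, and in the difference to Ube3a (0.22, SE 0.07, adjusted p = 0.413), a ligase known from Angelman syndrome.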

How the data were processed

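The 48 genes and the lists of partners, particle roles, motifs and markers were chosen with earlier results of these data known. Transcripts were quantified with Salmon 1.10.1 on GRCm38, per the submitters' processing notes. No source used here gives the annotation release or whether reads were counted by strand. The authors deposited estimated counts per gene, the same rescaled for length, and TPM. They also deposited log2 fold changes with adjusted p-values for pulldown over input in each genotype and for genotypes within input and within pulldown. The processing notes name DESeq2 1.38.3 for these. The difference of the change between genotypes had no such values.

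Estimated counts were rounded and tested with edgeR 4.0.16 (R 4.3.3, TMM scaling, filterByExpr with a minimum count of 10 and total of 15, quasi-likelihood test) over all genes, adjusted by Benjamini-Hochberg at 0.05. SE is the log2 fold change divided by the root of F. Each group had 4 libraries, whose totals are given in the report, and DESeq2 1.42.0 and limma 3.58.1 served as alternatives. The labels do not say how animals were assigned to pools. A count of 3 was taken as the floor of a library, and counting error alone is covered by it.

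Some genes were named by a rule: the 3 highest and 3 lowest called, or else the smallest p, in each comparison. The rule added the catalytic, inducible, 11S and tissue-restricted subunits. Other proteasome genes were named outside it to describe each role. Input and pulldown of a number came from the same lysate, per the labels' protocols, so the numbers pair them. The main fits had no term for the pool, and the fit with the pool as a block was an alternative. Deviations of the 8 same-numbered pairs from their group means correlated at -0.00217 to 0.18, with 1 of 8 above 0.1, and 6 of 8 inputs correlated best with their own pulldown. Replicates of a group differed by more than sampling noise in all 24 pairs (chi-square per degree of freedom 8.16 to 49.9). Near copies held few counts, at most 88.6 for Psme2b and 8.76 for pseudogenes. Promoter sequences are from RefSeq, GRCm38.p6, and the windows of 8 genes were not used. The values of a gene of the partner list, which its counts include, are not reported here.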

Additional observations from a re-analysis of the deposited data

Results flagged for a closer look

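Of 84 groups of 4 libraries examined for the named genes, 2 held a library whose gap to the nearest other exceeded Dixon's 95% critical value, fewer than the 1 in 20 groups that chance gives. Psmd2, a scaffold of the base, was at 88.1 CPM in pulldown of deletion-labelled pool 8, against 86.3 to 86.4 CPM in pools 5 to 7. Psme1, an 11S activator chain, was at 77.4 CPM in input of deletion-labelled pool 7, against 74.2 to 74.7 CPM in the other pools.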

How the results depend on the processing

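Relative to the median of all genes, the proteasome genes of control mice stood 0.35 higher in pulldown, and 0.49 without a filter, 0.28 for genes of at least 1 CPM, and 0.55 and 0.38 with limma on log2(TPM + 1) and log2(TPM + 0.1). In deletion-labelled mice the distance was 0.21, and 0.35, 0.42 and 0.27 without a filter and with the same limma settings. Lower calls in control went from 3 to 5 at 1 CPM or with the replicate block and to 1 with either limma setting. In deletion-labelled mice library totals gave 43 higher and 2 lower, and either limma setting 44 and 2. Psme4 reversed in control to 0.05 with library totals and to 0.37 and 0.40 with limma, and in deletion-labelled mice to 0.35 and 0.38 with limma. Limma on log2(TPM + 1) moved the all-gene median to 0.75 and 0.70 and the higher share of calls to 84.3% and 84.1%.

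Between genotypes in pulldown, no proteasome gene was higher with library totals (with or without mitochondrial genes), rescaled counts or limma, DESeq2 gave 3 higher and 1 lower, 1 fit of all 16 libraries 1 lower, and leaving out pools 1 and 5 gave 5 and 1. All genes called went from 108 to 266 (no filter), 1065 (DESeq2), 16 (rescaled), 30 and 22 (limma), 508 (all libraries) and 3363 (without pools 1 and 5), and 39.5% of calls were higher with library totals against 61.1%. In input the proteasome genes went from 0 to 1 higher with library totals, 3 higher and 1 lower with DESeq2, and 10 and 1 without pools 1 and 5. All genes called in input went from 41 to 108, 261, 380, 11, 22, 20 and 1957 with library totals, no filter, DESeq2, rescaled counts, both limma settings and without pools 1 and 5, and 87.0% of calls were higher with library totals against 58.5%. For the difference of the change between genotypes, all genes called went from 2 to 4 (RLE factors, both kinds of totals and the replicate block), 6 (no filter and limma with 1), 21 (DESeq2) and 0 (rescaled). The replicate block changed no other proteasome call than those in the report. The cause of these shifts was not tested.

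Leaving out 1 library at a time, proteasome genes called between genotypes ranged from 0 to 2 higher and 0 to 1 lower in pulldown (19 to 1262 over all genes, distance of medians 0.01 to 0.04) and from 0 to 2 higher and 0 to 0 lower in input (19 to 402, 0.06 to 0.10). For pulldown over input they ranged from 29 to 32 higher and 3 to 5 lower (5 without the pulldown of pool 1) in control (10812 to 11613, 0.32 to 0.37) and from 23 to 26 higher and 4 to 4 lower in deletion-labelled mice (10095 to 10753, 0.18 to 0.25). The highest totals over all genes came without pool 5 or pool 1, at 1262 and 556 in pulldown and 337 and 402 in input, and in pulldown every other pool left out gave 19 to 30. The difference of the change gave 0 to 0 (1 to 5 over all genes, -0.11 to -0.05). Counts of 10 to 60 behind Psmb8 and Psmb9 in pulldown limit their precision, and the edgeR p-values set a difference against the spread between libraries of a group.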

Other observations

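Vcp, the ATPase that hands unfolded substrates to the proteasome, was higher in pulldown of control mice at a log2 fold change of 0.32 (SE 0.04, edgeR adjusted p = 2.78e-05) and of deletion-labelled mice at 0.35 (SE 0.05, adjusted p = 8.32e-05), while Nploc4, its cofactor, was lower at -0.18 (adjusted p = 0.00849) and -0.30 (adjusted p = 0.000132). Of the 16 tested ligases, deubiquitinases and adaptors that bind the proteasome, 12 were higher and 1 lower in control, beside 30.1% and 34.6% of all genes, and 13 and 1 in deletion-labelled mice, beside 28.8% and 32.8%.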
